A study of Mus musculus with 16 samples.

Results

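Cells make cholesterol from acetyl-CoA through mevalonate, isoprenoid diphosphates, squalene and lanosterol, and the genes described here are 8 enzymes of that route, Hmgcs1, Mvk, Idi1, Fdps, Fdft1, Sqle, Lss and Dhcr7, with Srebf2, the gene of the transcription factor SREBP2 that switches most of them on when sterols are low. They were chosen by name, as probe sets whose platform annotation gives exactly 1 of these symbols, and this gave 22 of the 45101 probe sets of the array and 9 of the 18194 genes with a probe set of a single symbol. RNA was measured in interscapular brown adipose tissue (BAT) and in subcutaneous white adipose tissue (sWAT) of LACA mice, an outbred stock, labelled as males of 25 ± 3 g on standard chow and given no treatment. Each tissue had 4 replicates with 2 Affymetrix mouse genome arrays per replicate, 16 arrays in all, and the age of the mice is not given in the sources used here. Expression values are log2, and each probe set is centred on its own median across all arrays, so that samples can be compared but no level of a gene is known. A replicate value is the mean of its 2 arrays, a gene value the mean of its probe sets, and a difference is BAT minus sWAT on the log2 scale ± standard error.

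The pathway is fed back by its product. SREBP2 is held in the membrane of the endoplasmic reticulum while sterols are plentiful, and is carried to the Golgi and cut free when they fall, after which it binds sterol regulatory elements in the promoters of its targets, usually beside boxes for NF-Y and Sp1. Fat cells hold much of the free cholesterol of the body around their lipid droplet but are thought to make little of it compared with liver, and brown fat cells are best known for burning fatty acids to give heat.

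The promoters are shown first because the enzymes share these elements as a textbook feature. RefSeq windows of 250 bases before an annotated transcript start (build GRCm38.p6) were at hand for 6 of the 9 genes, in 8 windows, since Dhcr7 has 3. Those of Fdps, Fdft1 and Sqle were not used here. The windows below belong to 3 enzymes that were higher in BAT and to Srebf2, which was lower. They lie at chr13:119690101-119690350 (Hmgcs1), chr5:114444019-114444268 (Mvk), chr10:76531355-76531604 (Lss) and chr15:82147019-82147268 (Srebf2), all on the plus strand, and run 5′ to 3′ towards the start. Capitals mark exact matches on either strand of TCACNCCA, the shorter core of the sterol regulatory element, of CCAAT (NF-Y box) and of GGGCGG (Sp1 box).
Hmgcs1: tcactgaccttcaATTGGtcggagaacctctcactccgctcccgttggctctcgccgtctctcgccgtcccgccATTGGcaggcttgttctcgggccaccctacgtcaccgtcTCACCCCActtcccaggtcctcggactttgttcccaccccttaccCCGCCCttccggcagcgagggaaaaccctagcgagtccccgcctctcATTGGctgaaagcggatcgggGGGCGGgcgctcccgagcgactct
Mvk: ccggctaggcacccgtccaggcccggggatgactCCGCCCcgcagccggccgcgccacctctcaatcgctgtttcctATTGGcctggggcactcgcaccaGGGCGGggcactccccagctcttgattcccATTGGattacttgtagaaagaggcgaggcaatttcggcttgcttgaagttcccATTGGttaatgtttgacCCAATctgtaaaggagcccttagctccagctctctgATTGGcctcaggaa
Lss: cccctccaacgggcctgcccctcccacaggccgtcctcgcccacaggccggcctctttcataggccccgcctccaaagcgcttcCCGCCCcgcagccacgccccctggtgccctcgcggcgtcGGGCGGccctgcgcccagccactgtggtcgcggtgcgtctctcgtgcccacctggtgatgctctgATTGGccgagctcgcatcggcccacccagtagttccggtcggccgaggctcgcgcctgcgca
Srebf2: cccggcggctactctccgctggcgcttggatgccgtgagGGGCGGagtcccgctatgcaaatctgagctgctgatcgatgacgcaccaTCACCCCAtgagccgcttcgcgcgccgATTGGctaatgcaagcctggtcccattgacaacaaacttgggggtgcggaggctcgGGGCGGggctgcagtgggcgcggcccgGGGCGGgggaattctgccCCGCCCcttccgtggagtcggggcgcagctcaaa
The full core TCACCCCAC was found in the Hmgcs1 window alone among the 8, starting 137 bases before the transcript start, and 0.496% of all 32851 windows of this length hold it. The shorter core, which was searched after the sequences had been seen, was found in the Hmgcs1 window and in that of Srebf2, 162 bases before its start, against 3.67% of all windows. CCAAT was matched 14 times and GGGCGG 15 times, each in at least 1 window of all 6 genes with a window. Of all windows, 33.8% and 32.7% hold them. The 2 measures are not alike, since Dhcr7 counts through any of its 3 windows. Its window 1 held no CCAAT and its window 2 held neither box. Mvk carried 5 CCAAT matches, the most of any window shown, and no sterol element in these letters. The matches are letters in a window and not measured binding sites.

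Before the results, some facts on the samples matter for them. The probe sets at the 5′ end of Gapdh and Actb were far below those at the 3′ end on 2 arrays, BAT replicate 1 array 2 and sWAT replicate 3 array 1, with 5′ minus 3′ at -3.56 and -4.79 on the log2 scale, while the other arrays lay between -1.23 and 0.46. These 2 arrays also stood apart from the partner array of their replicate over all genes (r = 0.51 and 0.34, across genes, which are not independent replicates), and were kept. Over the 22 probe sets the median gap between the 2 arrays of a replicate was 0.48 to 0.49 in these 2 replicates and 0.12 to 0.18 in the other 6. The female-specific RNA Xist was 5.74, 6.26 and 6.36 in BAT replicates 1 to 3, -0.26 in BAT replicate 4, and -0.27 to -0.11 in the 4 sWAT replicates, and Y-linked genes ran the other way, which goes against the label male for 3 BAT replicates. This also goes against 1 mouse behind equal numbers for 1 to 3, so a pair means here only a BAT and a sWAT replicate of equal number. Tissue and sex-linked RNA move together in pairs 1 to 3 and cannot be told apart there, and pair 4, where Xist is low in both tissues, gives values with no test. The tissue names were borne out by markers, since 10 of 10 brown fat markers were higher in BAT, Ucp1 by 7.58 ± 0.49 (adjusted p = 8.5e-05, limma). All 10 skeletal muscle markers were also higher in BAT, and all 21 measured markers of B cells, T cells and lymph node vessel and stroma were lower. In BAT replicate 4 the brown fat list averaged 1.46, against 2.60 to 2.67 in BAT replicates 1 to 3. Its muscle list averaged 3.90, against 2.25 to 3.36 in those replicates. Where pair 4 departs from the other pairs, these list differences and low Xist cannot be told apart. In whole tissue, fewer cells of a type and less RNA per cell cannot be told apart.

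Of the 9 genes, 4 were higher in BAT, Fdft1, Hmgcs1, Lss and Mvk, 1 was lower, Srebf2, and 4 did not pass, Idi1, Fdps, Sqle and Dhcr7 (limma, replicate number as block, Benjamini-Hochberg adjusted p under 0.05 over all genes). Over all 18194 genes 38.4% passed, 21.0% higher and 17.5% lower in BAT, so that 5 of 9 stands against a high background. A total of 7 of the 9 differences were positive, with a median of 0.42 against 0.15 over all genes. The replicates of BAT and sWAT did not overlap for the same 5 genes that passed, against 45.4% of all genes (28.0% with BAT above and 17.4% with BAT below sWAT). Averaged over the 9 genes, the replicates lay at 0.27, 0.25, 0.22 and 0.10 in BAT and at -0.042, -0.041, -0.29 and -0.19 in sWAT. Without the 2 arrays of low 5′ signal, 7 of the 9 genes passed, 6 higher and 1 lower, with Fdps and Sqle added, while 8953 of all genes then passed.

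**Figure D1:**
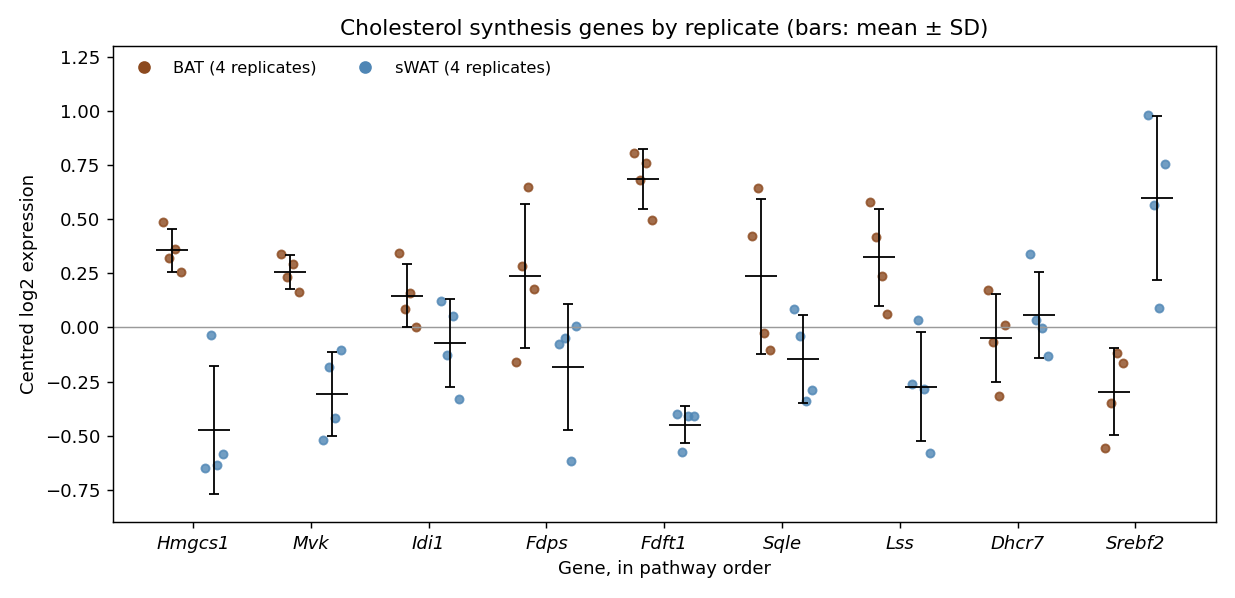
Centred log2 expression (y axis) of the 9 genes in pathway order (x axis), with each point the mean of 2 arrays of a replicate, BAT left of sWAT, and bars giving mean ± SD of 4 replicates. BAT lies above sWAT without overlap for Hmgcs1, Mvk, Fdft1 and Lss and below it for Srebf2.

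Hmgcs1 encodes the cytosolic HMG-CoA synthase, which makes HMG-CoA early in the route. Its replicates were at 0.49, 0.32, 0.36 and 0.25 in BAT and at -0.65, -0.034, -0.63 and -0.58 in sWAT. Every BAT replicate lay above every sWAT replicate, and sWAT replicate 2 stood well above the other sWAT samples. The difference was 0.83 ± 0.16, a 1.78-fold higher value in BAT (adjusted p = 0.0059, limma, 95% interval 0.46 to 1.20). It was 0.84 in pair 4 alone. The call was lost with a paired t-test over the 4 replicate pairs (adjusted p = 0.065). It was also lost in the limma fit with arrays scaled to Gapdh and Actb (1.15, adjusted p = 0.28). Hmgcs1 has 5 probe sets, which differed by 0.58 to 0.98, and 4 of them passed over all probe sets, where 32.4% passed, 15.1% higher and 17.3% lower in BAT. These 4 carry the same accession in the annotation, while the remaining one, 1441536_at, carries another. Probe set 1441536_at had 0.58 ± 0.21 (adjusted p = 0.071), and its value in BAT replicate 4 was -0.36, among the sWAT values. The probe sets of Hmgcs1 lay closer together than those of Fdft1, Lss or Srebf2.

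Mvk, mevalonate kinase, adds the first phosphate on the way to isoprenoids. The BAT replicates were at 0.34, 0.23, 0.29 and 0.16, and the sWAT replicates at -0.52, -0.18, -0.42 and -0.11. The groups did not overlap, although the lowest BAT value and the highest sWAT value were both those of replicate 4. BAT was higher by 0.56 ± 0.14, or 1.48-fold (adjusted p = 0.019, limma), and by 0.27 in pair 4. The call was lost without replicate 1, 2 or 3, with differences of 0.46, 0.61 and 0.51 (adjusted p = 0.0636, 0.0553 and 0.0521), and with array 2 of each replicate alone (0.38, adjusted p = 0.083). Mvk also did not pass with a paired t-test over the 4 replicate pairs (adjusted p = 0.083). The same held for arrays scaled to Gapdh and Actb or to their 3′ ends. The Mvk probe sets 1418052_at and 1430619_a_at had 0.67 (adjusted p = 0.011) and 0.46 (adjusted p = 0.080).

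Idi1 encodes the isomerase that turns isopentenyl diphosphate into dimethylallyl diphosphate. It was at 0.34, 0.083, 0.16 and 0.00095 in BAT and at 0.12, -0.13, 0.052 and -0.33 in sWAT. The groups overlapped. BAT was above sWAT of the same number in 4 of 4 pairs, but nothing shows that equal numbers mark 1 mouse. The difference of 0.22 ± 0.11 did not pass (adjusted p = 0.16, limma, 95% interval -0.049 to 0.48). Its probe sets 1423804_a_at and 1451122_at, which carry the same accession in the annotation, had 0.43 ± 0.15 and 0.0072 ± 0.14. The gene had -0.032 with array 1 of each replicate alone and 0.47 with array 2 alone (adjusted p = 0.90 and 0.042).

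Fdps, farnesyl diphosphate synthase, makes the last isoprenoid before the routes to sterols, ubiquinone, dolichol and prenylated proteins part. It gave -0.16, 0.28, 0.65 and 0.18 in BAT against -0.074, -0.047, -0.62 and 0.0071 in sWAT, with the lowest replicate of each tissue being the one that holds an array of low 5′ signal. Its difference of 0.42 ± 0.22 did not pass (adjusted p = 0.17, limma, 95% interval -0.11 to 0.94). Without these 2 arrays it was 0.49 and passed (adjusted p = 0.022), and in pair 4, which holds neither array, it was 0.17. It was 0.14 without replicate 3 (adjusted p = 0.45), and 0.76 with array 1 against 0.077 with array 2 of each replicate alone (adjusted p = 0.068 and 0.81). The spread was largest at probe set 1423418_at, where the 2 arrays stood at -2.04 in BAT replicate 1 and -2.02 in sWAT replicate 3, against 1.18 and -0.29 on their partner arrays. The other probe set, 1438150_at, stayed between -0.15 and 0.28 on all 16 arrays, with a difference of 0.096 ± 0.13.

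Fdft1 encodes squalene synthase, the first enzyme committed to sterols, and had the largest difference of the 9 genes when probe sets were averaged. The replicate values were 0.80, 0.68, 0.76 and 0.49 in BAT and -0.40, -0.57, -0.41 and -0.41 in sWAT. All BAT values were positive and all sWAT values negative, with a gap between the groups wider than the range within either. BAT was higher by 1.13 ± 0.12, 2.20-fold (adjusted p = 5.2e-04, limma), and by 0.90 in pair 4. Fdft1 did not pass with arrays scaled to Gapdh and Actb (1.46, adjusted p = 0.10, limma). It was the only one of the 9 genes to pass at a fold of at least 2, which 15.1% of all genes did. Its 4 probe sets fell into a pair with large and a pair with small differences. Probe sets 1438322_x_at and 1448130_at had 2.04 ± 0.19 and 1.97 ± 0.20 (adjusted p = 3.8e-04 and 5.8e-04), 4.10-fold and 3.90-fold higher in BAT, whereas 1438918_at and 1438919_x_at had 0.23 ± 0.14 and 0.30 ± 0.14 (adjusted p = 0.24 and 0.13). The 95% intervals of the pairs, 1.48 to 2.48 over the larger and -0.099 to 0.63 over the smaller, did not meet. With the median over probe sets Fdft1 had 0.80, below Hmgcs1 (0.82) and smaller in size than Srebf2 (-0.89), and Srebf2 was also larger in size with array 2 of each replicate alone (-1.12 against 1.08 for Fdft1) and in pair 4. Which transcripts each probe set reads was not determined here, and no level tells whether the weaker pair lies near background.

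**Figure D2:**
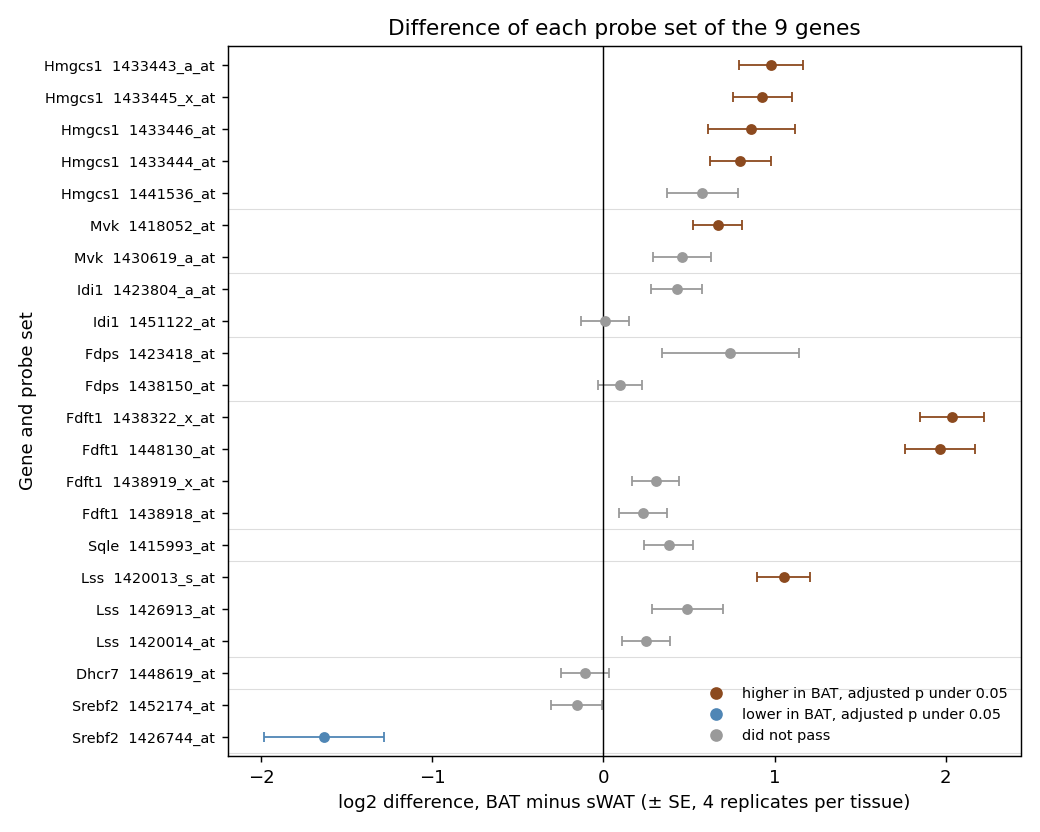
Difference BAT minus sWAT on the log2 scale (x axis, point ± SE, 4 replicates per tissue) for each of the 22 probe sets (y axis), grouped by gene in pathway order. Of these, 8 were higher and 1 was lower in BAT at an adjusted p under 0.05 over all probe sets, of which 15.1% were higher and 17.3% lower. Among the 8 are 4 of Hmgcs1 that carry the same accession. Probe sets of Fdft1, Lss and Srebf2 differ widely within the gene.

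Sqle, squalene epoxidase, introduces oxygen into squalene and is a control point of the pathway. Its single probe set gave 0.42, 0.65, -0.026 and -0.10 in BAT and 0.083, -0.038, -0.34 and -0.29 in sWAT. BAT replicates 1 and 2 were the highest of the 8, and BAT replicates 3 and 4 lay within the sWAT range. The difference of 0.38 ± 0.13 narrowly missed the threshold (adjusted p = 0.054, limma, 95% interval 0.075 to 0.69). Without the arrays of low 5′ signal it passed at 0.44 (adjusted p = 0.025), and pair 4 alone had 0.19. With array 1 of each replicate alone it had 0.20 and with array 2 alone 0.57 (adjusted p = 0.40 and 0.021).

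Lss, lanosterol synthase, closes the ring system of the sterols. The gene was at 0.58, 0.42, 0.24 and 0.062 in BAT and at -0.26, 0.035, -0.29 and -0.58 in sWAT, so that the groups came close at BAT replicate 4 and sWAT replicate 2 without overlapping. BAT was higher by 0.60 ± 0.13, 1.51-fold (adjusted p = 0.0096, limma), and by 0.64 in pair 4. Most of it came from probe set 1420013_s_at, with 1.05 ± 0.15 (adjusted p = 0.0023), whose suffix _s marks probes that match several transcripts. Probe sets 1426913_at and 1420014_at had 0.49 ± 0.21 and 0.25 ± 0.14 (adjusted p = 0.11 and 0.20). Without the shared probe set the gene did not pass (0.37, adjusted p = 0.11), nor did it with array 1 of each replicate alone (0.47, adjusted p = 0.053). The same held for arrays scaled to Gapdh and Actb (0.92, adjusted p = 0.49, limma) or to their 3′ ends.

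Dhcr7 reduces 7-dehydrocholesterol to cholesterol at the end of the route, and loss of the enzyme causes Smith-Lemli-Opitz syndrome in people. Its single probe set gave 0.17, -0.066, -0.32 and 0.013 in BAT and 0.34, 0.034, -0.0032 and -0.13 in sWAT. The groups overlapped almost fully. The difference was -0.11 ± 0.13 (adjusted p = 0.50, limma), and the 95% interval of -0.41 to 0.19 leaves room for a modest difference in either direction. Dhcr7 was the only enzyme of the 8 with a negative difference, and the sign turned when array 2 of each replicate was used alone (0.067), when the arrays were scaled to Gapdh and Actb (0.22), and in pair 4 (0.14).

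Srebf2 was the only one of the 9 genes to pass as lower in BAT. It was at -0.56, -0.35, -0.12 and -0.16 in BAT and at 0.98, 0.56, 0.089 and 0.75 in sWAT. Every BAT value was negative and every sWAT value positive, with sWAT replicate 3, which holds an array of low 5′ signal, nearest to the BAT values. BAT was lower by 0.89 on the log2 scale, a difference of -0.89 ± 0.21, or 1.86-fold (adjusted p = 0.015, limma), and pair 4 had -0.92. The call was lost without replicate 2 (-0.89, adjusted p = 0.051) and with array 1 of each replicate alone (-0.66, adjusted p = 0.096). Srebf2 also did not pass with a paired t-test over the 4 replicate pairs (adjusted p = 0.12). The same held for the limma fit with arrays scaled to Gapdh and Actb (-0.57, adjusted p = 0.63). Here too the probe sets parted, although both carry the same accession. Probe set 1426744_at gave -1.24, -0.54, -0.14 and -0.0072 in BAT against 1.73, 1.14, 0.41 and 1.32 in sWAT, a difference of -1.63 ± 0.35 (adjusted p = 0.012). Probe set 1452174_at had -0.16 ± 0.15 (adjusted p = 0.45, 95% interval -0.51 to 0.20), with overlapping groups. On the sole sWAT array of low 5′ signal 1426744_at read -0.54, against 1.35 on its partner, and on that of BAT -1.93 against -0.56. No protein and no cleaved SREBP2 was measured.

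**Figure D3:**
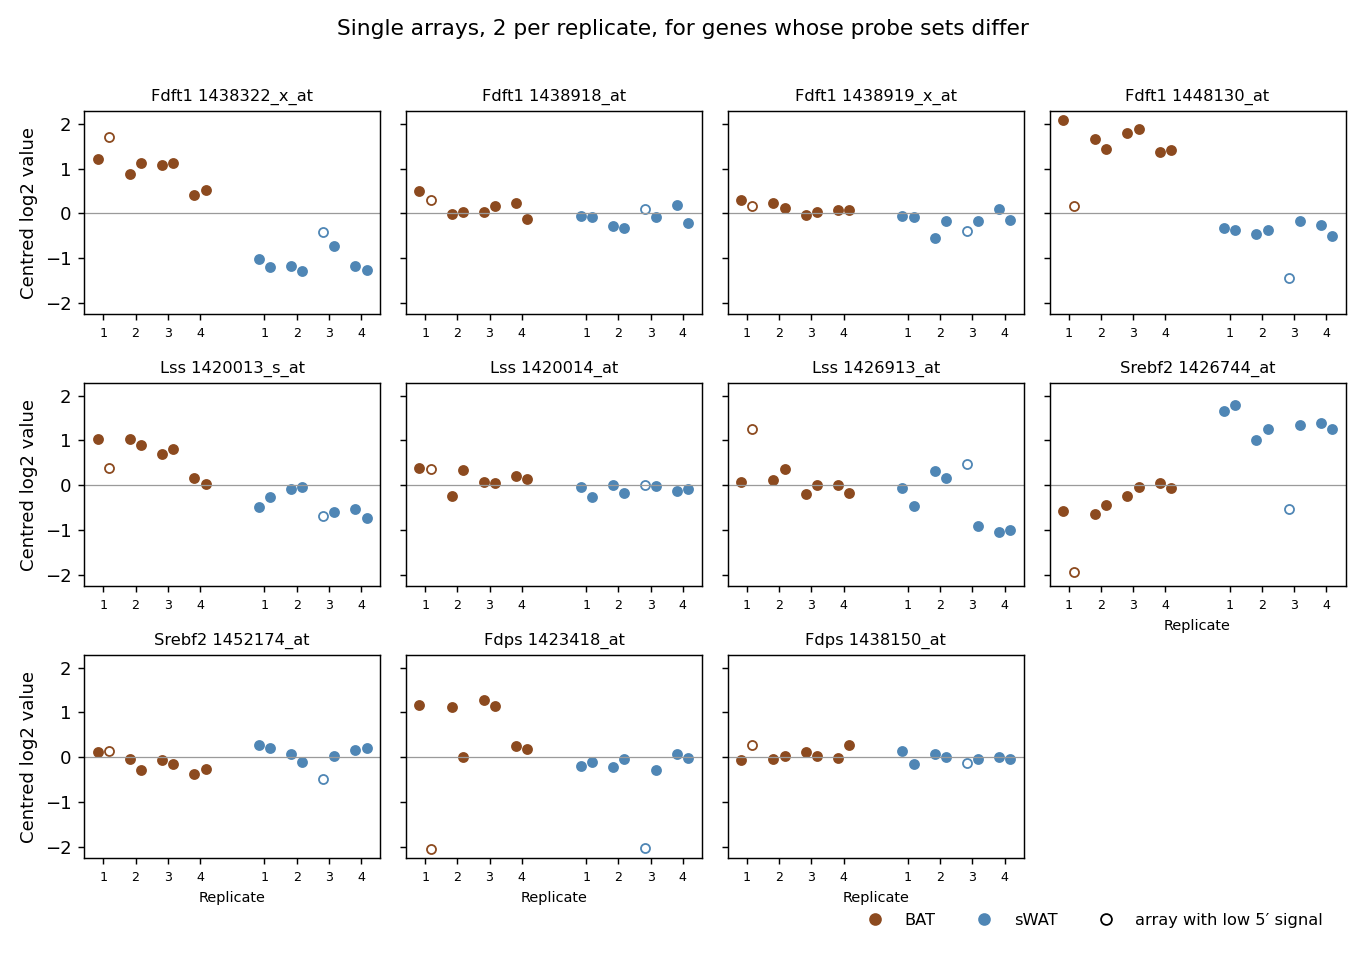
Centred log2 value (y axis) of single arrays, 2 per replicate (x axis, replicates 1 to 4, BAT left and sWAT right), for the probe sets of Fdft1, Lss, Srebf2 and Fdps. Open points are the 2 arrays with low 5′ signal, which read near -2.0 for Fdps 1423418_at, while 1438150_at of the same gene stayed near 0 on every array.

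The other enzymes of the pathway passed about as often as all genes. Of 10 further enzymes of cholesterol synthesis that had a probe set of a single symbol, 3 were higher, 1 was lower and 6 did not pass, with a median difference of -0.030, beside 38.4% of all genes passing and a median of 0.15. Pmvk, phosphomevalonate kinase, was at 0.60, 0.53, 0.38 and 0.039 in BAT and at -0.68, -0.052, -0.55 and -0.28 in sWAT, a difference of 0.78 ± 0.18 (adjusted p = 0.013, limma). Like Mvk just before it in the route, it was higher in every BAT replicate than in every sWAT replicate. Nsdhl, which helps to remove methyl groups after lanosterol, was higher by 0.57 ± 0.16 (adjusted p = 0.029), with overlapping groups, and its call was lost without replicate 2 or 3 (0.57 and 0.40, adjusted p = 0.0964 and 0.0593). Pair 4 alone had 0.32 for Pmvk and 0.35 for Nsdhl.

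Opposite differences were found for the genes of 2 proteins with sterol reductase activity at the same step. Tm7sf2 was at 0.034, 0.42, 0.43 and 0.35 in BAT, against -0.37, 0, -0.59 and -0.47 in sWAT, higher by 0.67 ± 0.15 (adjusted p = 0.012). Lbr, the lamin B receptor, which also anchors chromatin to the nuclear envelope, was at -1.91, -1.52, -1.18 and -0.97 in BAT against 1.56, 0.95, 1.37 and 1.16 in sWAT. That is a difference of -2.65 ± 0.22, 6.28-fold lower in BAT (adjusted p = 1.8e-04). Lymphocyte markers moved the same way, with list means of -2.22 to -1.69 in BAT and 1.85 to 2.56 in sWAT for B cells (9 of 9 lower) and of -1.87 to -1.17 in BAT and 1.55 to 2.13 in sWAT for T cells (8 of 8 lower), as did 7 of 7 genes of dividing cells. Their part in the Lbr difference was not tested. The enzymes between lanosterol and cholesterol that did not pass were Cyp51 (-0.24 ± 0.14), Msmo1 (-0.18 ± 0.15), Hsd17b7 (0.24 ± 0.14), Ebp (0.11 ± 0.42) and Sc5d (-0.34 ± 0.11, adjusted p = 0.053), and Mvd, which closes the mevalonate part, had -0.17 ± 0.11. Ebp had the widest error of these, and its BAT replicate 1 (-1.34) and sWAT replicate 3 (-1.67), those with an array of low 5′ signal, were far below the others.

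Among 7 measured genes of SREBP processing and sterol sensing, 2 were higher in BAT, none was lower and 5 did not pass, with a median of 0.031. The sister factor gene Srebf1, best known for fatty acid synthesis, was at 0.54, 0.99, 0.15 and 0.35 in BAT and at -0.68, -0.19, -0.55 and -0.67 in sWAT. It was higher by 1.03 ± 0.13 (adjusted p = 0.0012, limma), opposite in sign to Srebf2 on the same arrays. Insig2, which retains the SREBP complex in the endoplasmic reticulum, was higher by 0.49 ± 0.11 (adjusted p = 0.015). Insig1 and Scap of the same list had the opposite sign and did not pass, with -0.19 ± 0.18 and -0.27 ± 0.17 (adjusted p = 0.43 and 0.24, limma). Mbtps1, the gene of the protease that makes the first cut in SREBPs, differed by 0.031 ± 0.13. Fatty acid synthesis, the route fed by SREBP1, had 5 of 7 measured genes higher, none lower and 2 not past the threshold, with a median of 0.998. Of all genes 38.4% passed, 21.0% higher in BAT. The list means overlapped, with -0.065 to 1.04 in BAT and -1.36 to 0.12 in sWAT. In replicate 4 they were -0.065 in BAT and -0.37 in sWAT. Elovl6 led at 1.54 ± 0.33 (adjusted p = 0.010, and 0.57 in pair 4 alone), while Scd1 had 0.35 ± 0.19.

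Genes that move or dispose of sterols were mixed for uptake and mostly lower in BAT for efflux and oxidation. For uptake and trafficking 2 of 7 were higher, 2 lower and 3 did not pass, with a median of -0.37. Npc1, which exports cholesterol from lysosomes, was higher by 0.77 ± 0.23 (adjusted p = 0.034), a call lost without replicate 1 or 2 (0.91 and 0.81, adjusted p = 0.0519 and 0.0804). Npc1 had 0.48 without replicate 3 (adjusted p = 0.0385) and 0.43 in pair 4 alone. Mylip, the ligase that marks lipoprotein receptors for breakdown, was at -0.97, -0.41, -0.46 and -0.57 in BAT and at 0.39, 0.59, 0.52 and 0.58 in sWAT, a difference of -1.12 ± 0.12 (adjusted p = 5.7e-04). For efflux, esterification and oxidation 1 of 7 was higher, 4 were lower and 2 did not pass, with a median of -1.11. That median is the value of Apoe, -1.11 ± 0.88, which did not pass (adjusted p = 0.33, limma). Apoe was lowest in BAT replicate 1 (-3.99) and sWAT replicate 3 (-2.69), those with an array of low 5′ signal. Ch25h, whose product 25-hydroxycholesterol holds back SREBP processing, was at -1.06, -1.04, -1.03 and -0.19 in BAT and at 0.34, 0.40, 0.63 and 0.44 in sWAT, a difference of -1.28 ± 0.18 (adjusted p = 0.0018), and of -0.63 in pair 4 alone. Cyp27a1, the mitochondrial sterol hydroxylase, was higher by 0.44 ± 0.14 (adjusted p = 0.041), but its probe sets had 0.93 and -0.049 and the call was lost without replicate 2, 3 or 4 (0.49, 0.40 and 0.35, adjusted p = 0.0992, 0.0930 and 0.154). Abca1, an exporter of cholesterol, had -0.15 ± 0.11. Ch25h is also made by macrophages, of whose 8 markers 5 were lower and 1 was higher in BAT, with list means of -1.44 to 0.31 in BAT and -0.32 to 0.70 in sWAT, and their part was not tested. On the isoprenoid side branches 1 of 7 was higher, Fntb of protein farnesylation by 0.50 ± 0.11 (adjusted p = 0.012, and 0.0742 without replicate 2), and 6 did not pass, Dhdds of dolichol synthesis with the smallest difference (0.16 ± 0.12).

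**Figure D4:**
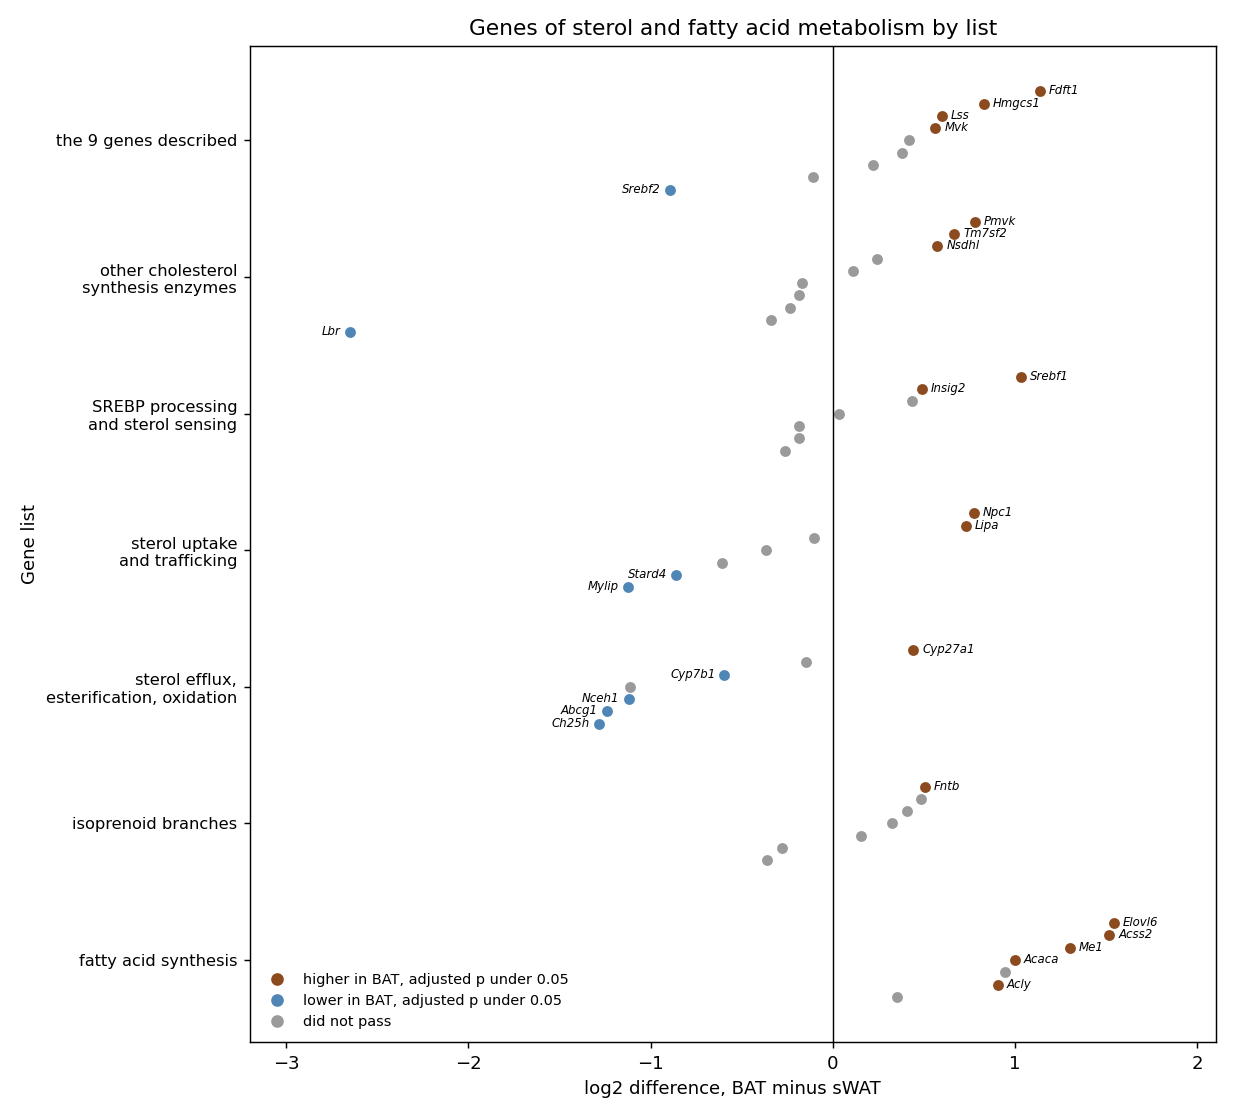
Difference BAT minus sWAT on the log2 scale (x axis) for each measured gene, arranged by list (y axis), with coloured and named points for genes past an adjusted p of 0.05. Fatty acid synthesis lies to the right of 0 throughout, sterol efflux and oxidation mostly to the left, and the cholesterol enzymes on both sides.

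Over the 6 lists together, 45 genes were measured, of which 14 were higher in BAT, 7 were lower and 24 did not pass, where 38.4% of all genes passed, 21.0% higher and 17.5% lower. Without the 2 arrays of low 5′ signal 29 of the 45 passed, and 8953 of the 18194 genes did. As for the 9 genes themselves, muscle and lymphocyte RNA differed between the tissues in the same samples, since the muscle list averaged 2.25 to 3.90 in BAT and -2.13 to -1.77 in sWAT. Its part in the differences of the enzymes was not tested. Markers of fat cells in general overlapped, with list means of -0.66 to 0.34 in BAT and -0.51 to 0.19 in sWAT and 3 higher and 1 lower of 8. Adipoq, the gene of adiponectin, differed by 0.21 ± 0.12 (adjusted p = 0.18).

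The 9 genes did not lie equally near to their common pattern. With each gene centred on its own mean over the 8 replicate values, the root mean square distance from the mean of the 9 genes was 0.16 for Idi1, 0.18 for Mvk, 0.20 for Sqle and for Lss, 0.26 for Fdps, 0.28 for Dhcr7, 0.29 for Hmgcs1, 0.41 for Fdft1 and 0.67 for Srebf2. The 5 other genes nearest to that mean were Chmp7 (0.040), Adal (0.051), Psmc1 (0.054), Shoc2 (0.058) and Tbc1d22a (0.059), picked out of all genes by this distance over 8 replicates. Their differences ran between 0.30 and 0.43, which follows from how they were picked.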

How the data were processed

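RNA of BAT and sWAT was hybridized to 16 Affymetrix arrays, 4 replicates per tissue with 2 arrays each, labelled biological (array 1) and technical (array 2). The authors deposited log2 values, made by RMA and quantile normalization in GeneSpring and centred for every probe set on its median across the 16 arrays. The 2 arrays of a replicate were averaged. BAT minus sWAT was fitted with limma 3.58.1 (lmFit and eBayes, R 4.3.3), taking the replicate number as block, since the methods describe a paired test over mice that gave both tissues, and Benjamini-Hochberg adjustment ran over 45101 probe sets or 18194 genes. In the platform annotation 34958 probe sets name 1 gene, 932 name several and 9211 none, and gene values average the probe sets that name this gene alone. Nothing says that the replicate numbers mark mice, and for 1 to 3 Xist goes against it. The fit without this block was an alternative. With the block, p-values rest on the spread of the differences between BAT and sWAT replicates of equal number in these samples. Because centred values hold no signal level, neither background nor depth of an array can be given. Precision rests on the 4 replicates per tissue and their spread.

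The genes and lists were chosen with earlier results of these data known. The rule for named genes took all 9 genes and their probe sets, all further measured enzymes of cholesterol synthesis, of every other list the genes past the threshold with the largest difference in each direction and the gene with the smallest absolute difference, and the 5 genes nearest to the mean of the 9. Of the cell type, sex-linked and reference lists, only those genes that bear on a result are printed. Insig2, Insig1, Scap and Apoe were added after their values were seen. The fits were tested on simulated data. Alternatives were the fit without the block, array 1 or array 2 alone, the arrays without low 5′ signal (5′ more than 3 log2 units below 3′ for Gapdh and Actb), the methods' t-test, other scalings, each replicate left out, other summaries of probe sets, the more variable features alone and a fold of at least 2. Pair 4 alone, scaling to the 3′ ends, and no block without the low arrays were chosen after seeing the data. Promoter windows are from RefSeq (GRCm38.p6). Figures used matplotlib 3.10.9 (Python 3.11.15).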

Additional observations from a re-analysis of the deposited data

Results flagged for a closer look

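Each of the 62 genes named by the rule was searched in both tissues, 124 groups of 4 replicates, for a replicate whose distance to its nearest neighbour takes up nearly all of the group's range (Dixon's test, 95% level). This picked out 13 groups, 3 of them among the 9 genes, and chance alone gives about 1 in 20 groups. Hmgcs1 in sWAT replicate 2 was at -0.034, against -0.65 to -0.58 in the other sWAT replicates. Fdps in sWAT replicate 3 was at -0.62, against -0.074 to 0.0071, and that replicate holds an array of low 5′ signal, as it does for Ebp, with -1.67 in sWAT replicate 3 against -0.19 to 0.014. Fdft1 in sWAT replicate 2 was at -0.57, against -0.41 to -0.40, a small distance in log2 terms. Cyp51 in sWAT replicate 4 was at -0.057, against 0.19 to 0.22.

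BAT replicate 4 stood apart from the other BAT replicates for 7 genes. It had -0.19 for Ch25h (others -1.06 to -1.03), -0.28 for Scd1 (0.23 to 0.32), 2.75 for Ucp1 (4.33 to 4.53) and -0.48 for Top2a (-1.04 to -0.97). It also had -0.26 for Xist (5.74 to 6.36), 0.40 for Eif2s3y (-3.21 to -2.94) and 0.13 for Tbc1d22a (0.22 to 0.22). Of the 9 genes, none had BAT replicate 4 picked out in this way, but with 4 values the test finds only wide gaps. Averaged over the 9 genes, BAT replicate 4 was at 0.10, against 0.22 to 0.27 in the other BAT replicates. Krt18 in BAT replicate 2 was at 0.60, against 0 to 0.092.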

How the results depend on the processing

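Among the 9 genes the direction of Hmgcs1, Mvk, Fdps, Fdft1, Sqle, Lss and Srebf2 was the same under every alternative run, pair 4 alone included, while that of Idi1 and Dhcr7 turned in some. Without the replicate block 5 of the 9 genes passed, the same 5 in the same directions, and 18432 probe sets and 8573 genes did. The replicate numbers are shared by the tissues, but the deviations of same-numbered samples from their group means did not go together (r = -0.15, 0.077, -0.34 and 0.26 across genes for numbers 1 to 4), and the highest r was 0.52, between BAT replicate 1 and sWAT replicate 3, those with an array of low 5′ signal. With array 1 of each replicate alone 3 of the 9 genes passed, and 6031 of all 18194 genes did. The methods' t-test over 4 replicate pairs passed 5116 probe sets, 3567 genes, 3 of the 22 probe sets, 2 of the 9 genes (Fdft1 and Lss) and 9 of the 45 other genes. Over 8 array pairs the same test passed 20617 probe sets, 14 of the 22 among them. It counts the technical array of each replicate as an independent pair, so its p-values are too small. Scaled to Gapdh and Actb, 2 genes that themselves differed by 1.27 ± 0.47 and -1.28 ± 0.32, the arrays gave 2761 probe sets (1621 higher and 1140 lower in BAT, against 6818 and 7787 in the values reported), 1271 genes, 2 of the 22, 0 of the 9 and 3 of the 45, with the median over all genes at 0.47 in place of 0.15 and the median standard error at 0.56 in place of 0.14. Scaled to their 3′ ends, they gave 8927 probe sets, 3771 genes and 3 of the 9. At a fold of at least 2, 7064 probe sets, 2753 genes, 4 of the 22, 1 of the 9 and 9 of the 45 passed, fewer by construction. Without both block and low arrays 22203 probe sets passed. Leaving out each replicate in turn gave 9764 to 14069 probe sets, 4627 to 6766 genes, 7 to 9 of the 22, 3 to 5 of the 9 and 12 to 20 of the 45, and each lowest count but the 7 came without replicate 2.

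Signs that turned belonged to differences that had not passed, apart from Eif2s3y. With array 1 alone they were -0.032 for Idi1, -0.097 for its probe set 1451122_at, -0.024 for Fdps 1438150_at, 0.024 for Mvd and 0.11 for Scarb1. With array 2 alone they were 0.067 for Dhcr7 and its probe set, -0.062 for Fdps 1423418_at, 0.067 for Cyp51, -0.83 for Ebp, -0.051 for Mbtps1 and 0.0097 for Abca1. Scaling to Gapdh and Actb gave 0.22 for Dhcr7 and its probe set, 0.17 for Srebf2 1452174_at, 0.15 for Mvd, 0.087 for Cyp51, 0.14 for Msmo1, 0.22 for Scarb1 and 0.18 for Abca1. Scaling to array medians gave -0.054 for Idi1 1451122_at and -0.030 for Mbtps1. Idi1 1451122_at had -0.0079 without the low arrays, with or without the block, and -0.050 to 0.095 with a replicate left out, negative without replicate 3 or 4. With a replicate left out, Scarb1 ran between -0.28 and 0.18 (positive without replicate 1), and Ebp between -0.45 and 0.53 and Mbtps1 between -0.064 and 0.10 (both negative without replicate 3). Mvd had 0.036 and Mbtps1 -0.24 without probe sets ending in _s_at, _x_at or _a_at, and Mbtps1 -0.018 as the median of its probe sets. In pair 4 the signs were turned for Dhcr7 (0.14), Cyp51 (0.12), Msmo1 (0.14), Scarb1 (0.16), Scd1 (-0.088), Dhdds (-0.021) and Eif2s3y (0.45). The causes were not tested.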
